A study of Mus musculus with 6 samples.

Results

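The genes described here are Samd7, the gene targeted in the study, Gm33590, a noncoding gene inside it, and their relatives with a sterile alpha motif (SAM) domain, namely Samd11, Samd1, Samd13, the polyhomeotic genes Phc1, Phc2 and Phc3, and Scmh1. The 9 symbols were looked up by name in the authors' table of 49997 genes, and 8 of them had a row. Samd13 is listed in the RefSeq gene table as another name of 4930503B20Rik, whose row was read in its place but was too low to be tested. RNA was sequenced from 3 retinas labelled Samd7 knockout (-10A), taken at postnatal day 31, and from 3 retinas labelled c57Bl6/j wt, taken at postnatal day 36. The first are called KO-labelled below. Male was the sex given for all 6, each library held 1 retina, and the labels do not say what -10A stands for. Age and genotype cannot be told apart in these groups. The study asked how the loss of Samd7 affects the identity of photoreceptors.

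A SAM domain is a small protein fold that can bind other SAM domains head to tail, so that proteins carrying it join into chains. In Polycomb repressive complex 1 (PRC1), which keeps developmental genes silent by compacting chromatin and ubiquitinating histone H2A, the polyhomeotic proteins contribute such chains. Samd7 and Samd11 are SAM proteins made largely by photoreceptors and associated there with PRC1.

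Values are normalized read counts, in which the authors scaled each library's gene counts by its size factor. Library totals in recovered reads were 44.2 to 53.1 M in the KO-labelled group and 47.7 to 62.8 M in wild type. Markers of several retinal cell types differed between groups, where 6.79% of all 20277 tested genes rose and 5.21% fell. Of 15 rod markers 0 rose and 12 fell (median log2 fold change -0.63, summed level 3172980 to 3388360 in the KO-labelled group against 5218310 to 5614820 in wild type). Of 10 microglia markers 9 rose and 0 fell (summed level 5619 to 6264 against 3510 to 4002), and of 12 pigment epithelium markers 0 rose and 10 fell (1811 to 2887 against 4939 to 7798). The microglia count was 6 without KO-labelled 3 or wild type 3, and the pigment epithelium count was 6 without wild type 2. Of 13 cone markers 7 rose and 1 fell (773898 to 814970 against 183446 to 188942), and all 5 red blood cell markers rose. The other 5 cone markers did not pass, so the cone sum does not describe each of them. Opn1sw, named after its values were seen, held the largest part of that sum (mean 416374 against 43705). Of 8 Müller glia markers 3 rose and 1 fell, with 0 rises without wild type 3 and 1 without wild type 2 or KO-labelled 3. Of 10 bipolar markers 0 rose and 1 fell with limma, with 3 rises and 1 fall without KO-labelled 1, 4 rises and 0 falls on scaling to total reads, and 0 of either without KO-labelled 2, KO-labelled 3, wild type 2 or wild type 3. Of 12 amacrine and ganglion markers 0 passed with limma, edgeR or DESeq2, 2 had an unadjusted p under 0.05, and 1 fell without KO-labelled 1. Lens markers summed to 156 to 218 in the KO-labelled group and to 204, 207 and 7392 in wild type 1, 2 and 3. No marker in these lists was at 0 in all libraries. The part of these shifts in the values below was not tested, and in whole retina a change in the number of cells of a type cannot be told apart from a change in RNA per cell.

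The bases just before the starts of Samd7, Gm33590 and Samd11 are shown because these 3 genes had the largest rises among the members. RefSeq promoter windows (GRCm38.p6) existed for 7 of the 9 symbols. Each run holds the 200 bases before the start, 5′ to 3′ on the strand of its gene. Capitals mark TAATCC or its reverse complement GGATTA, the core sequence bound by Crx, the homeodomain factor that switches on many photoreceptor genes.
Samd7, chr3:30746093-30746292, plus strand: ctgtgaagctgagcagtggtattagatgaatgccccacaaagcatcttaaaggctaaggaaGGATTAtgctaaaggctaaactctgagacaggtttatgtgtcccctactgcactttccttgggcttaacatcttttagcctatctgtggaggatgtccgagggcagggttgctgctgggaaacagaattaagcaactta
Samd11, chr4:156255343-156255542, minus strand: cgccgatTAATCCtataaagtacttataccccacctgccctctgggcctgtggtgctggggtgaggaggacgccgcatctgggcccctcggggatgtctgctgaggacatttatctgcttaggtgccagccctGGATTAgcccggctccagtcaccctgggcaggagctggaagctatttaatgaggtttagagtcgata
Gm33590, chr3:30756745-30756944, minus strand: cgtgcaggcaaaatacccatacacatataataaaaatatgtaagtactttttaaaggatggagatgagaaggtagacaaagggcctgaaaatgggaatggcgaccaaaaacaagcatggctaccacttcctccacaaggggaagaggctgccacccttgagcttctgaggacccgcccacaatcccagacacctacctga

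Samd7 held 1 match, which began at -139 from the start, and Samd11 held 2, which began at -193 and -67. The Gm33590 window held 0, and so did those of Phc1, Phc2, Phc3 and Scmh1. The start used for Samd11 lies inside the gene's outer bounds, and Scmh1 and Phc2 have several starts in the table. All 200 bases of the Phc1 window lie in an untranslated region of a GENCODE M21 transcript, as do 41 bases of a Scmh1 window and 1 base of another. So do 4 bases of the Gm33590 window, which also overlaps annotated exons of Samd7. On both strands, 4.91% of all 32851 windows of this length held at least 1 match and 0.198% held at least 2. A match describes these letters only. Crx itself had 52272 ± 296 normalized reads in the KO-labelled group and 56813 ± 1203 in wild type (SD, n = 3 each). All its KO-labelled values were below all its wild-type values, where the groups of 31.1% of all tested genes did not overlap. The difference did not pass the test (unadjusted p = 0.0439 and adjusted p = 0.174 by limma-trend, the test used throughout, adjusted over all tested genes).

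The gene that the label says was knocked out was higher, not lower, under that label. Samd7 (chromosome 3, 30746293 to 30767174, GRCm38) had 57837, 45755 and 44932 normalized reads in KO-labelled retinas 1, 2 and 3. Wild-type retinas 1, 2 and 3 had 6349, 8141 and 8122. The groups were far apart, and each varied little within itself, with a coefficient of variation of 14.6% and 13.7%. Samd7 was thus 6.57 times as high under the KO label (95% interval of the log2 fold change 2.47 to 2.96 around 2.72, limma adjusted p = 1.54e-08). Among all 49997 genes ranked by normalized count, Samd7 stood between places 66 and 97 in the libraries labelled Samd7 KO and between 1035 and 1586 in wild type. It took 0.088% to 0.116% of the reads counted to genes in the first group and 0.0118% to 0.0158% in the second. A whole-gene count does not show whether a transcript carries a small sequence change, and directions here are those of the libraries labelled Samd7 KO.

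Gm33590 (chromosome 3, 30752309 to 30756744) is a long noncoding RNA gene that lies within Samd7 on the opposite strand. It starts inside exon 5 of the longest Samd7 transcript of GENCODE M21, and its span of 4436 bases takes in 811 bases from 3 of the 8 exons of that transcript. Its values were 459, 422 and 481 normalized reads in the KO-labelled group, and 27.4, 20.6 and 23.5 in wild type. The groups did not overlap, and all 3 wild-type values were low. Its mean rose 19.1-fold, by 4.20 ± 0.18 (SE) on the log2 scale (limma adjusted p = 1.57e-08), on 1314 reads against 76. The strand setting of the counting was not given in the sources used here, and without strand the reads of Gm33590 and Samd7 cannot be told apart.

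The ratio of Gm33590 to Samd7 reads was higher in each KO-labelled library. For every 100 Samd7 reads there were 0.794, 0.922 and 1.07 Gm33590 reads in the KO-labelled group and 0.431, 0.253 and 0.29 in wild type. The lowest KO-labelled ratio was above the highest wild-type ratio. On the log2 scale the mean ratio was 1.55 higher, with an exact two-sided permutation p = 0.1, the smallest that 3 against 3 libraries allow.

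Samd11 (chromosome 4, 156246966 to 156256011), the other SAM protein of photoreceptors, also rose, by less and with a wider spread. KO-labelled retinas 1, 2 and 3 had 38689, 30098 and 36487 normalized reads. Wild-type retinas 1, 2 and 3 had 27512, 16538 and 16692. The groups did not overlap, but wild type 1 stood far above the other two wild-type libraries and close to KO-labelled 2. The coefficient of variation was 31.1% in wild type and 12.7% in the KO-labelled group. The ratio of means was 1.73, with a log2 fold change of 0.83 (limma adjusted p = 0.00643, 95% interval 0.47 to 1.19). That ratio was 2.11 without wild type 1, 1.59 without wild type 2 and 1.59 without wild type 3. The call held with each library left out (adjusted p = 1.96e-05 to 0.035) and ended where the test estimated spreads robustly (adjusted p = 0.0542 with limma and 0.0728 with edgeR and TMM factors).

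**Figure D1:**
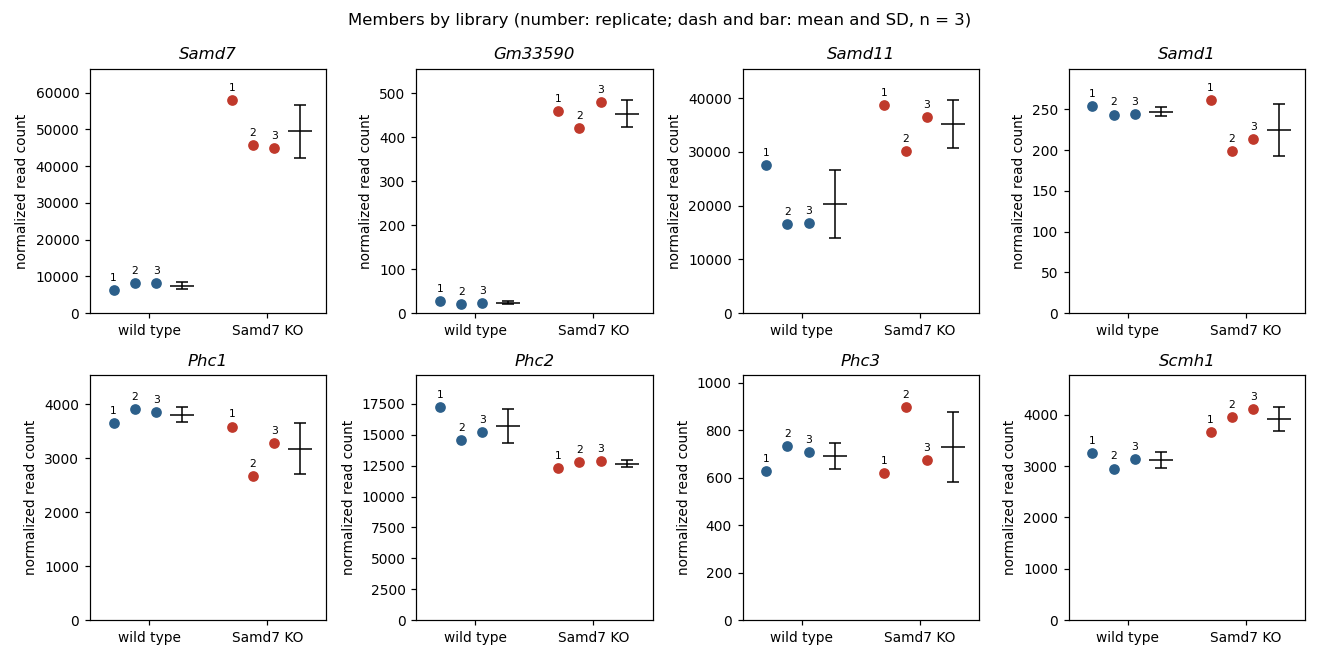
Normalized read count of each of the 8 genes in every library, wild type on the left (blue) and Samd7 KO on the right (red) of each panel, with replicate numbers, the mean and the SD (n = 3). Samd7 and Gm33590 separate widely, wild type 1 lies apart from the other wild-type libraries for Samd11, and the axes, which start at 0, differ between panels.

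The order of Samd7 and Samd11 turned between groups. Divided by the length of the longest GENCODE M21 transcript (3144 bases for Samd7 and 2610 for Samd11), the level per kilobase of Samd11 was 5.22, 2.45 and 2.48 times that of Samd7 in wild type 1, 2 and 3. In the KO-labelled group it was 0.806, 0.792 and 0.978 times that of Samd7. Without division by length these ratios were 2.03 to 4.33 in wild type and 0.658 to 0.812 in the KO-labelled group. Samd11 was thus the higher of the pair in each wild-type retina and the lower in each retina labelled Samd7 KO. The log2 ratio of Samd11 to Samd7 differed by -1.89 (exact two-sided permutation p = 0.1, the smallest possible). Without wild type 1 the difference was -1.53.

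The 2 genes beside the end of Samd11 also set wild type 1 apart. Gm52691, a long noncoding RNA gene on the same strand as Samd11 (chromosome 4, 156243673 to 156245167), begins 1798 bases past its end. It had 18 normalized reads in wild type 1, against 245 in wild type 2 and 232 in wild type 3. The KO-labelled libraries had 22.6, 10.4 and 22.1, so that wild type 1 lay inside their range and the other two wild-type libraries lay far above it. With all libraries the difference did not pass with limma (log2 fold change -2.48, adjusted p = 0.059) and did with edgeR (0.0122 to 0.0141 over TMM, RLE and upper-quartile factors) and DESeq2 (0.0167), though not with robust dispersions in edgeR (0.132). With limma it passed without wild type 1 (log2 fold change -3.70, adjusted p = 2.32e-05) and without KO-labelled 1 (adjusted p = 0.0392). Thus the wild-type library with the most Samd11 had the fewest Gm52691 reads. This was not so in the KO-labelled group, where KO-labelled 2 was the lowest for both Samd11 (30098) and Gm52691 (10.4).

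Noc2l, which encodes a histone-binding corepressor, contains Gm52691 within its span and overlaps the end of Samd11 by 651 bases on the opposite strand. Without strand, reads in exon bases that Noc2l shares with Gm52691 or with Samd11 cannot be told apart, and the strand setting was not given. Noc2l had 1920, 1624 and 1937 normalized reads in the KO-labelled group and 2210, 2501 and 2496 in wild type. It fell by 0.40 ± 0.10 (SE) on the log2 scale (limma adjusted p = 0.0192). Leaving out wild type 2 or wild type 3 ended this call (adjusted p = 0.0889 and 0.105). Wild type 1 was again the wild-type library nearest to the KO-labelled group. On the other side of Samd11, Vmn2r129, of the pheromone receptor family, did not pass, with 40.1 ± 1.12 normalized reads under the KO label and 39 ± 1.42 in wild type (SD, n = 3). Vmn2r125 was too low to be tested.

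**Figure D2:**
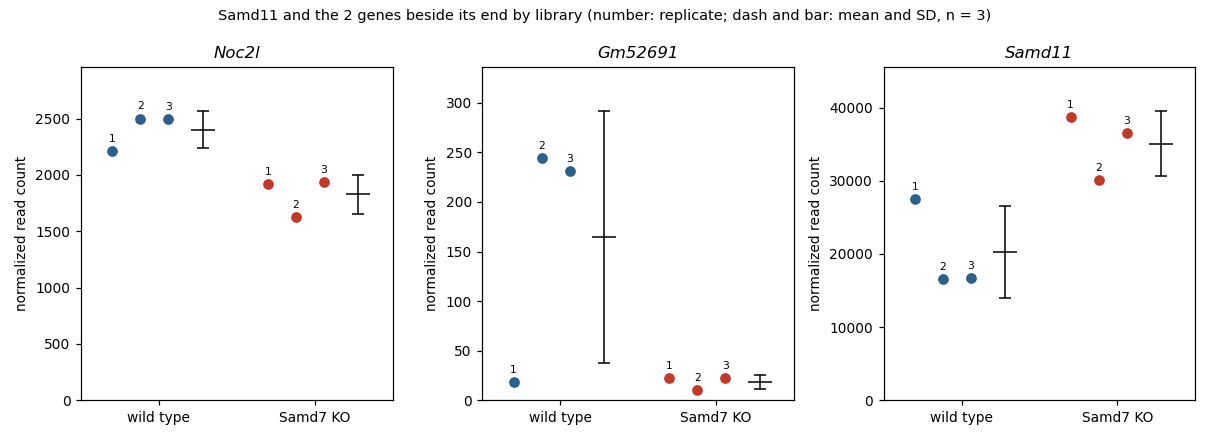
Normalized read counts of Noc2l, Gm52691 and Samd11 in every library (blue wild type, red Samd7 KO, with replicate numbers, the mean and the SD, n = 3). Wild type 1 has the highest Samd11 and the lowest Gm52691 and Noc2l of the wild-type libraries, while Samd7 KO 2 has the lowest value of each gene in its group.

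Around Samd7, the 5 nearest genes with reads were taken on each side. Of these 10 genes 5 were tested, Gm33590 rose and the other 4 did not pass. Sec62, a subunit of the machinery that moves proteins into the endoplasmic reticulum, begins 25701 bases past the end of Samd7 and had 7907 ± 395 normalized reads under the KO label and 8618 ± 952 in wild type (SD, n = 3), with overlapping groups. For Mynn, a zinc finger factor on the other side, the log2 fold change was 0.02, with -0.22 and 0.26 as the bounds of its 95% interval. For Gpr160, an orphan receptor, it was 0.24, with bounds of -0.52 and 0.99. The fourth neighbour was Phc3, which is itself one of the SAM-domain genes described here and starts 153 kb from the start of Samd7. Lrrc34, Lrriq4, Lrrc31, Gm15462 and Gm42198 were too low to be tested. Lrriq4 had 13 reads in the KO-labelled group and 0 in wild type, and Lrrc34 had 23 and 8.

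**Figure D3:**
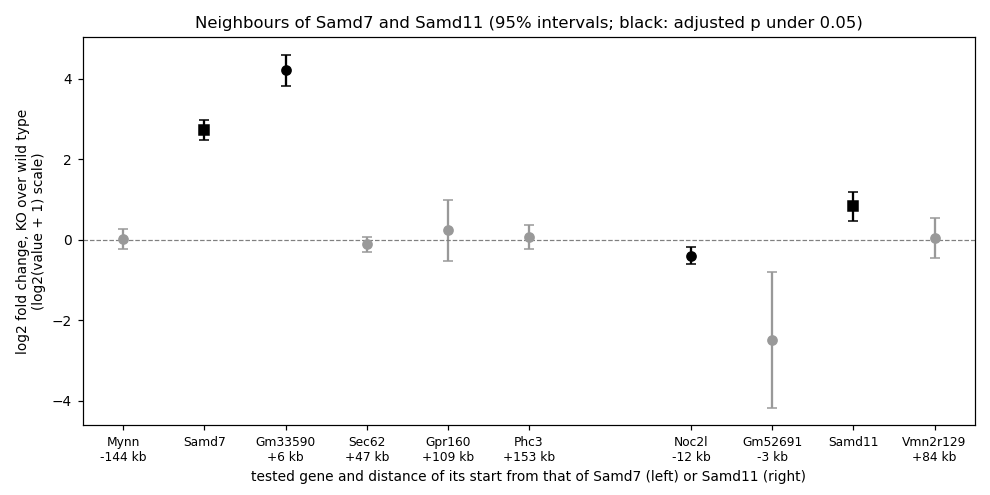
Log2 fold change (Samd7 KO over wild type, with 95% limma intervals) of Samd7, Samd11 (squares) and their tested neighbours, ordered by distance between starts in kilobases. Gm33590 is the tested neighbour of Samd7 away from 0 (4.20), while beside Samd11 the values of Noc2l and Gm52691 are negative.

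The polyhomeotic genes encode the SAM-domain subunits of canonical PRC1. Phc2 was their most abundant transcript, with 3969 ± 347 normalized reads per kilobase in wild type (SD, n = 3), against 903 ± 32.9 for Phc1 and 62.8 ± 5 for Phc3. This order held in all 6 libraries. Phc2 (chromosome 4, 128654655 to 128752881) had 12305, 12811 and 12871 normalized reads in the KO-labelled group and 17209, 14571 and 15241 in wild type. All 3 KO-labelled values were below all 3 wild-type values, and they lay closer together. Phc2 fell, with a log2 fold change of -0.30 ± 0.07 (SE), or 1.24-fold (limma adjusted p = 0.0181). The call ended without wild type 1 (adjusted p = 0.0518), wild type 3 (0.0675) or KO-labelled 3 (0.0569), while the log2 fold change stayed between -0.36 and -0.24 over 18 alternative settings.

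Phc1 (chromosome 6, 122317731 to 122340227) had 3588, 2669 and 3288 normalized reads in the KO-labelled group and 3649, 3911 and 3858 in wild type. The groups did not overlap, though KO-labelled 1 came close to wild type 1. The difference, -0.27 on the log2 scale with a 95% interval of -0.49 to -0.04, did not pass (limma adjusted p = 0.12). It passed without KO-labelled 1 (adjusted p = 0.0276). Phc3 (chromosome 3, 30899295 to 30969479) had 618, 896 and 676 against 628, 733 and 709 normalized reads. Its groups overlapped, and the log2 difference of 0.07 (95% interval -0.24 to 0.37) did not pass and turned to -0.09 without KO-labelled 2.

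Phc2 gave 77.4%, 81.9% and 79.5% of the summed Phc level per kilobase in the KO-labelled group and 82.5%, 78.8% and 79.7% in wild type. The mean shares were 79.6% ± 2.25 and 80.3% ± 1.95 (SD, n = 3 each), a difference of less than the spread of each group (exact two-sided permutation p = 0.7). The sign of this difference depended on single libraries, being 0.36 percentage points in the other direction without KO-labelled 1 or without wild type 1.

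**Figure D4:**
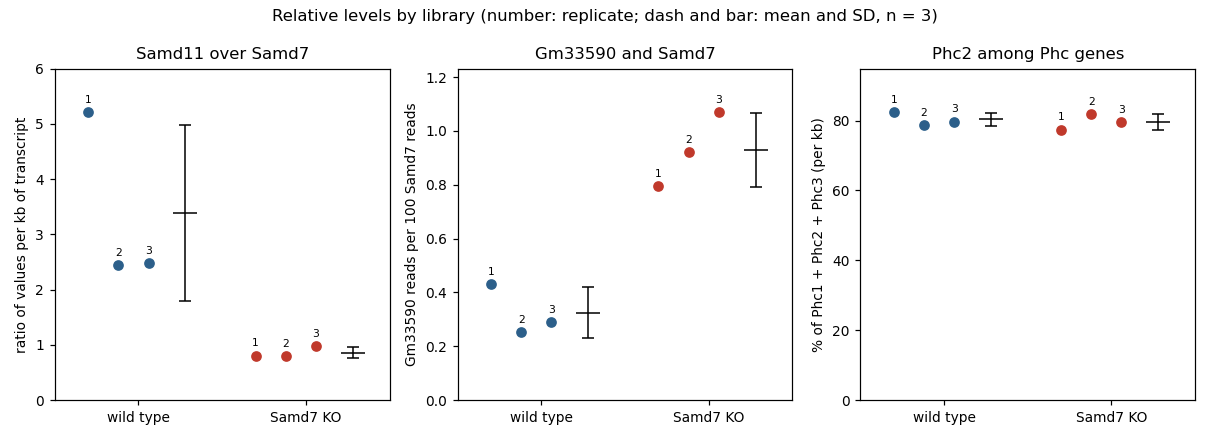
Per library, the Samd11 level per kilobase divided by that of Samd7 (left), Gm33590 reads per 100 Samd7 reads (middle) and the percentage of the Phc level per kilobase that is Phc2 (right), blue wild type and red Samd7 KO with the mean and SD (n = 3). The first 2 measures do not overlap between groups, and the Phc2 share lies between 77.4% and 82.5% in all 6 libraries.

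Scmh1 (chromosome 4, 120405150 to 120530200), a mouse counterpart of fly Sex comb on midleg that joins PRC1 through its SAM domain, was higher. It had 3665, 3960 and 4119 normalized reads in the KO-labelled group and 3256, 2952 and 3144 in wild type. The lowest KO-labelled value was above the highest wild-type value. Scmh1 rose 1.26-fold, by 0.33 ± 0.08 (SE) on the log2 scale (limma adjusted p = 0.0188), the opposite direction to Phc2. This call ended without KO-labelled 3 (adjusted p = 0.0977), wild type 2 (0.0963) or wild type 3 (0.0839), with a log2 fold change of 0.29 to 0.39 over the 18 settings.

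Samd1 (chromosome 8, 83997516 to 84000415) encodes a SAM protein that binds unmethylated CpG islands. It had 261, 199 and 214 normalized reads in the KO-labelled group and 254, 244 and 244 in wild type. KO-labelled 1 was the highest of all 6 libraries and the other two KO-labelled libraries the lowest, and the log2 difference of -0.15, with a 95% interval of -0.46 to 0.16, did not pass. The Samd13 row, 4930503B20Rik (chromosome 3, 146645189 to 146685892), held 13.5, 9.33 and 5.77 against 7.7, 5.41 and 0.941 normalized reads, or 27 reads against 15 in all. At this depth it stayed under the minimum for a test, and its groups overlapped.

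All 8 genes with a row of their own passed the filter on low values. Of these, 4 rose and 1 fell, where 12% of all 20277 tested genes passed the test, 6.79% as rises and 5.21% as falls. In 6 of the 8 the groups did not overlap, against 31.1% of all tested genes. The median log2 fold change was 0.20 over the 8 genes and 0.00 over all genes. These 8 were listed with earlier results of the same libraries known, Gm33590 among them, so that these counts describe the list and test nothing. Levels per kilobase in wild type ran from Samd11 (7758 ± 2411 normalized reads per kilobase, SD, n = 3) over Phc2 (3969 ± 347), Samd7 (2397 ± 327), Phc1 (903 ± 32.9), Scmh1 (880 ± 43.3) and Samd1 (119 ± 2.92) to Phc3 (62.8 ± 5). Phc1 and Scmh1 differed by less than their spread. The place of Phc3 below Samd1 rests on the transcript length used for it, 10976 bases. Without division by length Phc3 was the higher, with 690 normalized reads in wild type against 247 for Samd1. In the KO-labelled group Samd7 (15747 ± 2298) and Samd11 (13445 ± 1710) were the highest, and their ranges overlapped. Gm33590 had no transcript length in the annotation used and is not placed in this order.

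The authors' deposited table, from DESeq2, gave a log2 fold change of 2.72 for Samd7, 4.24 for Gm33590 and 0.79 for Samd11. In its test against a log2 fold change of 0, adjusted p was 5.42e-109 for Samd7, 1.79e-75 for Gm33590, 0.0357 for Samd11, 0.00741 for Phc2 and 0.00445 for Scmh1, while Phc1 (0.107), Samd1 (0.676) and Phc3 (0.796) did not pass at 0.05. Against a log2 fold change of 1, its adjusted p was 1.01e-42 for Samd7, 2.62e-43 for Gm33590 and 1 for each of the other 6 genes. These values come from the same libraries.

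Other Polycomb and SAM-domain genes were read in 4 lists. Of their 48 tested genes, limma called 0 as rises and 2 as falls, where 12% of all tested genes passed, and 46 did not pass. Of the 48, 6 had an unadjusted p under 0.05, against 26.5% of all tested genes, and 11 had groups that did not overlap, against 31.1%. With edgeR (TMM) and with DESeq2 there were also 0 rises and 2 falls, and there were 0 falls without KO-labelled 3, wild type 2 or wild type 3, 1 without wild type 1 and 3 without KO-labelled 2. Among 20 PRC1 partners 0 passed with limma, edgeR or DESeq2 on all libraries, and 2 had an unadjusted p under 0.05 (median log2 fold change -0.04). The Polycomb ring finger gene Pcgf5, named after its values were seen, fell without KO-labelled 2. They include the ring finger enzymes Ring1 and Rnf2, the Pcgf proteins and the Cbx readers. The highest counts were those of Cbx6, a chromodomain reader, with 9997 ± 319 normalized reads under the KO label and 9138 ± 503 in wild type (SD, n = 3). Next came Yaf2, a subunit of variant PRC1, with 6207 ± 208 and 6854 ± 209 (SD, n = 3). The groups did not overlap for either gene, and neither passed (limma adjusted p = 0.25 and 0.201).

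The 2 falls were both accessory proteins of PRC2, the complex that methylates histone H3. Phf1, a Polycomb-like protein that reads methylated histones, had 5408, 4196 and 4933 normalized reads against 6589, 6326 and 5982 in wild type. It was 1.30-fold lower (limma adjusted p = 0.0193). Epop, an elongin-binding PRC2 partner, had 838, 763 and 798 against 1038, 1094 and 1007, and was 1.31-fold lower (limma adjusted p = 0.0193). In both genes all KO-labelled values were below all wild-type values. The Phf1 call ended without KO-labelled 3 or any 1 wild-type library (limma adjusted p = 0.0521 to 0.0723), and the Epop call without KO-labelled 3, wild type 2 or wild type 3 (0.0684 to 0.0902). The other 10 PRC2 genes did not pass, and the histone-binding subunits Rbbp4 (13224 ± 606 and 13252 ± 224 normalized reads, SD, n = 3) and Rbbp7 (7223 ± 345 and 7320 ± 99) had the highest counts. The median over the 12 was 0.01.

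Relatives with a SAM domain, malignant brain tumour repeats or, as in Scmh1, both had 0 of 7 genes past the limma test. With edgeR or DESeq2 0 passed, and 0 had an unadjusted p under 0.05 (median log2 fold change 0.18). Sfmbt1 had 1421 ± 182 normalized reads under the KO label and 1378 ± 36.8 in wild type, and L3mbtl3 308 ± 34.8 and 273 ± 42.5 (SD, n = 3). Of the other genes named Samd, 0 of 9 tested passed with limma, edgeR or DESeq2 and 2 had an unadjusted p under 0.05 (median log2 fold change 0.07), and Samd3 was too low to be tested. Samd14 had the highest count, with 8737 ± 689 normalized reads under the KO label and 9705 ± 488 in wild type, followed by Samd4b, a relative of the fly RNA-binding protein Smaug, with 3193 ± 133 and 3665 ± 261 (SD, n = 3).

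**Figure D5:**
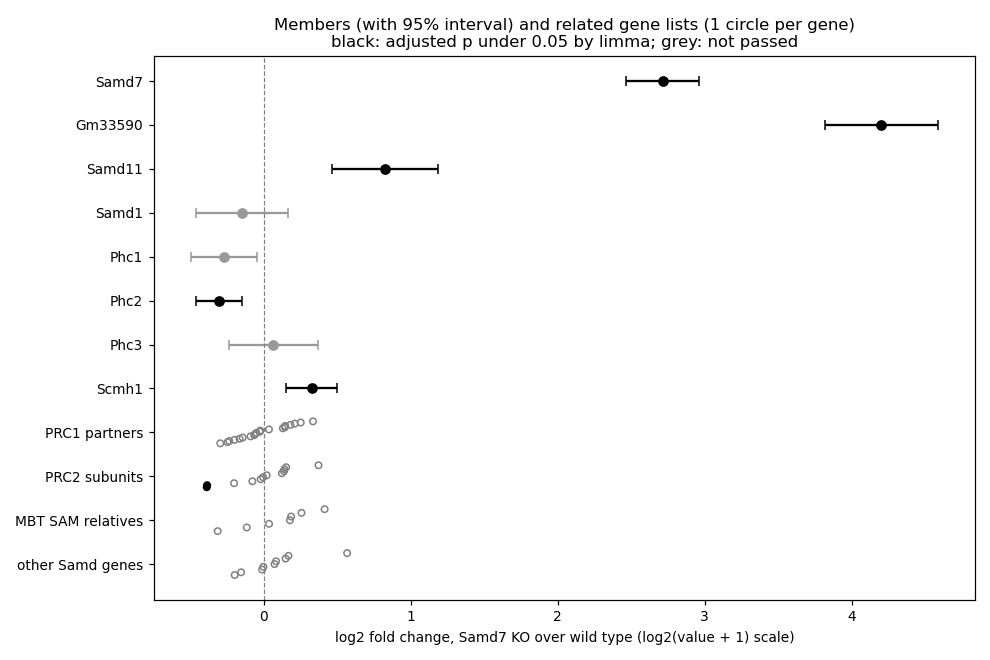
Log2 fold change (Samd7 KO over wild type, log2(value + 1) scale) of the 8 members with 95% limma intervals, and of each tested gene in the 4 related lists as 1 circle, black where the adjusted p was under 0.05. Samd7, Gm33590 and Samd11 lie to the right of the listed genes, and the black circles are Phf1 and Epop.

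Factors that set photoreceptor fate were also read beside these genes. Of 12 tested, 3 rose and 2 fell (median log2 fold change 0.15), where 6.79% of all tested genes rose and 5.21% fell. Over the 18 alternative settings there were 2 to 4 rises and 2 falls. Nrl and Nr2e3 are also among the rod markers counted above, and Rxrg and Thrb among the cone markers. Rxrg, a retinoid receptor of cones, had 7321 ± 161 normalized reads under the KO label and 976 ± 106 in wild type (SD, n = 3), 7.50-fold higher. Prdm1, which favours photoreceptors over bipolar cells, rose by 0.92 on the log2 scale and Neurod1, a photoreceptor survival factor, by 0.28. Nrl, the factor of rod identity, was 1.62-fold lower and Esrrb, an orphan receptor of rods, 1.38-fold lower. The Neurod1 call ended without wild type 3 (limma adjusted p = 0.0611). Nr2e3, a repressor of cone genes in rods, was among the 7 that did not pass, with overlapping groups.

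The genes whose log2 values followed Samd7 most closely over the 6 libraries, out of 15317 named genes compared, were Nfkbia (Pearson r = 0.999), an inhibitor of NF-κB, Hopx, Mlf1, Cenpj, a centriole protein, and Arl6, a ciliary GTPase, each with r of at least 0.998. Nfkbia had 10493, 9462 and 9589 normalized reads in the KO-labelled group and 4519, 5147 and 5038 in wild type. Like Samd7 it was highest in KO-labelled 1 and lowest in wild type 1. Among the genes closest to Samd11 were Ccdc159 (r = 0.990), the microglial gene Tmem119 (r = 0.987) and the interferon-induced GTPase gene Iigp1 (r = 0.986). Tmem119 had 403, 359 and 410 normalized reads in the KO-labelled group and 352, 289 and 270 in wild type, with wild type 1 the highest of its group and just below KO-labelled 2. Tmem119 is also in the microglia list, whose summed level was 4002, 3620 and 3510 in wild type 1, 2 and 3, highest in wild type 1. Its part in the pattern of Samd11 was not tested. These r values describe 6 libraries in 2 groups that share each library's scaling, and they were the largest picked from many genes.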

How the data were processed

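Per the labels' protocols, polyadenylated RNA of single retinas was made into cDNA with the SMARTer Ultra Low kit, sheared, ligated to adapters and amplified, with no molecular identifiers described, so counting error is not the only error of a read count. The submitters' processing notes name STAR 2.7.3a, HTSeq 0.12.4, cutadapt 3.0, DRAGEN, DESeq2 and SAMtools 1.9, and GRCm38 (mm10) as build; their roles and a strand setting are not stated in these sources. The deposited per-library signal is a gene's reads over the library's size factor. The authors also deposited log2 fold changes, Wald scores and p-values, per the file headers. Dividing by the worth of 1 read gave whole reads (within 0.01) for 100% of the 166478 values above 0.

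Genes reaching a value of 10 in 3 or more libraries (20277) were tested with limma-trend (limma 3.58.1, R 4.3.3) on log2(value + 1), two-sided, with Benjamini-Hochberg adjustment over all of them and a threshold of 0.05. Folds are ratios of group means, and log2 fold changes understate changes of low genes. Single ratios were tested by exact permutation over libraries. Positions and promoters are from RefSeq (GRCm38.p6), transcript lengths from GENCODE M21. Alternatives were edgeR 4.0.16 (TMM, RLE and upper-quartile factors), DESeq2 1.42.0, scaling to total reads, pseudocounts of 0.5 and 5, other filters, leaving out each library and a replicate block. Robust variances in limma and edgeR were added after seeing the data. The scripts were tested on simulated counts. Between replicates, chi-square per degree of freedom of the counts was 6.78 to 33, so no column was a re-sequencing of another column's library. Libraries made separately from the same RNA cannot be told apart from independent ones in this way. Whether a group's retinas came from separate mice is not stated, and p-values measure the spread among these retinas.

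Named were all members, list genes that passed and the 2 highest of each list, the nearest neighbours of Samd7 (5 a side) and Samd11 (2 a side), and the 5 genes most like each in pattern, of which 2 for Samd11 are not reported here; Ring1 and Rnf2 are named as examples. The members and lists were chosen with earlier results of these data known.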

Additional observations from a re-analysis of the deposited data

How the results depend on the processing

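Samd7 and Gm33590 kept their rise and their call in all 18 alternatives (limma, edgeR or DESeq2 adjusted p at most 3.7e-07 and 8.8e-07), and Samd11 in 16 of 18. Phc2 and Scmh1 kept their direction in all 18 and their call in 14. The number of the 8 genes that passed, 5, was 3 with a replicate block, where Phc2 (adjusted p = 0.0572) and Scmh1 (0.0657) were lost, and 3 to 6 with single libraries left out (3 without KO-labelled 3 and without wild type 3). The count over all genes, 2432, fell to 1313 without wild type 3, 1470 without wild type 2 and 1497 without KO-labelled 3, with a highest value of 3247 without KO-labelled 1. With the replicate block it was 1624, and Epop (adjusted p = 0.0701) and Noc2l (0.0541) also lost their calls. Same-numbered libraries did not deviate together (r = -0.18, -0.13 and -0.01), so the numbers were not taken as pairs. With the block the exact sign-flip p of the Samd11 to Samd7 and the Gm33590 to Samd7 ratios was 0.25. This is the smallest p that 3 pairs allow, and that of the Phc2 share was 0.75. The difference in the Phc2 share, -0.72 percentage points, ranged from -1.89 to 0.36 with single libraries left out, and was 0.365 without KO-labelled 1 and 0.364 without wild type 1. The Samd11 to Samd7 log2 ratio difference ranged from -2.07 to -1.53 and that of Gm33590 to Samd7 from 1.38 to 1.77. Scaling to total reads made 71.2% of called genes higher, against 56.6%, and changed no call of the 8 genes; the cause of these moves was not tested. Of the 8 genes Gm33590 had the fewest wild-type reads (76), and the Samd13 row, with 15, was too shallow for a test.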
